A study of Homo sapiens with 2 samples.

Results

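The 10 genes described here, HK2, GPI, PFKP, ALDOA, TPI1, GAPDH, PGK1, PGAM1, ENO1 and PKM, encode one enzyme for each step of glycolysis, and were taken by name from the 20033 protein-coding genes of GENCODE 44, an annotation of the human genome build GRCh38. Open chromatin was mapped by ATAC-seq, an assay that sequences the places where a transposase, Tn5, can reach and cut the DNA between nucleosomes. All cells were 293T, an established line derived from human embryonic kidney and expressing SV40 large T antigen. The control library came from 50000 cells that received fresh medium, although one label names PBS as the treatment, and the MGO library from 50000 cells grown with 0.5 mM methylglyoxal (MGO) for 12 h. With 1 library analysed per condition, no difference below has a replicate check and no test between conditions was made.

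Glycolysis splits glucose into pyruvate and yields ATP and NADH. Its first steps spend ATP to make a sugar with a phosphate at each end, which aldolase splits into the triose phosphates, and its later steps recover ATP from them. MGO forms from these trioses, dihydroxyacetone phosphate and glyceraldehyde 3-phosphate when they lose phosphate without the help of an enzyme. Dividing cell lines such as 293T use the pathway heavily. The comparison asks how open chromatin at the genes of this pathway differed between the control library and the library from cells given MGO.

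The data are lists of broad peaks, stretches of DNA in which the authors' peak caller found more reads than the local background. The control list held 36142 peaks and the MGO list 22884, down to q values of 0.0986 and 0.0988. Read counts are not in the lists, so the depth behind a peak is unknown. All deposited peaks were used. The methods of the study use a q value under 0.01, and peaks that do not reach it are named as such. A start-site peak is one within 1000 bp of any annotated transcription start site (TSS) of the gene, and a control peak counts as retained when an MGO peak overlaps it by at least 1 bp. Intervals are exact 95% binomial intervals, cover counting error only and treat peaks as independent. Of genes fixed as marks of 293T, LIN28B, PAX2 and INA had a start-site peak in both lists, and PTPRC, CD3E and ALB, genes of blood and liver, had none in either.

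Promoter sequences are shown for 5 members, because the peaks of both lists lie on them in different ways: in both lists (HK2, ALDOA, PGK1), in the MGO list but not the control list (TPI1), or in part in the control list and not in the MGO list (PFKP). Each is the 250 bases before a transcript start, 5′ to 3′ on the coding strand, from RefSeq on GRCh38.p14. At HK2, PFKP and TPI1 the printed start is not the canonical one. Capitals mark ACGTG or GCGTG on either strand, the core that hypoxia-inducible factors bind, so that CACGT or CACGC on the printed strand is marked too. At PGK1 such sites are a textbook example of this control. In the windows at the canonical starts of HK2 and TPI1, which are not printed, the 250 bases upstream hold 3 and 0 such sites.
HK2, start at 74835170, chr2:74834920-74835169, + strand: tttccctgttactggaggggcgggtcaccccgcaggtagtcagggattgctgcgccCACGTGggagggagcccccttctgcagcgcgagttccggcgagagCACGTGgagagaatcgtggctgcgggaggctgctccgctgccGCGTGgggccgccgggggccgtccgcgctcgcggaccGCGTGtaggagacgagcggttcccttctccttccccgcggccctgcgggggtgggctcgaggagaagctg
PFKP, start at 3069189, chr10:3068939-3069188, + strand: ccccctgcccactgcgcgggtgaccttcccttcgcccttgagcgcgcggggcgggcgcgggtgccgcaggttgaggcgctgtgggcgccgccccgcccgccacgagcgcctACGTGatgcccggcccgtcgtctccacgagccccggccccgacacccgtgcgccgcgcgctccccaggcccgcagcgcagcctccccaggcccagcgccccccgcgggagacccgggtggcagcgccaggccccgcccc
ALDOA, start at 30065760, chr16:30065510-30065759, + strand: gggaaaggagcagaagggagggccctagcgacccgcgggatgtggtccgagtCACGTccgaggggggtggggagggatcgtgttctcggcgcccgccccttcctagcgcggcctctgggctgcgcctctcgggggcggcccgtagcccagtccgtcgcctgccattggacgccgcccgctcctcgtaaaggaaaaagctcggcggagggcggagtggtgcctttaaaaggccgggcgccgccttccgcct
TPI1, start at 6868105, chr12:6867855-6868104, + strand: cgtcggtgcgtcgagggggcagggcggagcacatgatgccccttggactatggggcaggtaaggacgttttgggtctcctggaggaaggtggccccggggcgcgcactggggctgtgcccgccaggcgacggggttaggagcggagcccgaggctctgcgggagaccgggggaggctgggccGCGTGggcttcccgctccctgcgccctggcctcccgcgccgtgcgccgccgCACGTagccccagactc
PGK1, start at 78104248, chrX:78103998-78104247, + strand: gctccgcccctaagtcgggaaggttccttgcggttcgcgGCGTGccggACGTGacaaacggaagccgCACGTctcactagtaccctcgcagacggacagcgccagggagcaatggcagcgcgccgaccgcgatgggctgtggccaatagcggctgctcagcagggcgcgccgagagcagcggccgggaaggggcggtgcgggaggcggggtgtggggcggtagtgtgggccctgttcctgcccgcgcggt

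All 10 glycolysis genes had a start-site peak in the control list and in the MGO list, and in all 10 at least 1 control peak was retained (interval 69.2 to 100%). A start-site peak was present at 67.3% of all protein-coding genes in control and at 63.9% in MGO. Of the genes with one in control, 92.9% retained it, and of those whose strongest control peak lay in the same range of −log10 p as the 10 genes, 96% did. The count of 10 is near the level of genes with peaks of like strength. The 10 genes had 13 start-site peaks in control and 12 in MGO, each with a TSS inside it. Only 2 peaks in each list had a q value above 0.01.

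Of the 121 annotated TSSs of the 10 genes, 85 had a control peak within 1000 bp (70.2%) and 76 an MGO peak (62.8%). The fall was at GPI, with 15 of its 18 TSSs near a control peak and 3 near an MGO peak. Among the 103 TSSs of the other genes the numbers were 70 and 73. PGK1 went from 2 to 4 of its 6 TSSs, with an added MGO peak of −log10 q 1.35, and TPI1 from 8 to 9 of its 10. The remaining 7 genes had the same number in both lists.

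**Figure D1:**
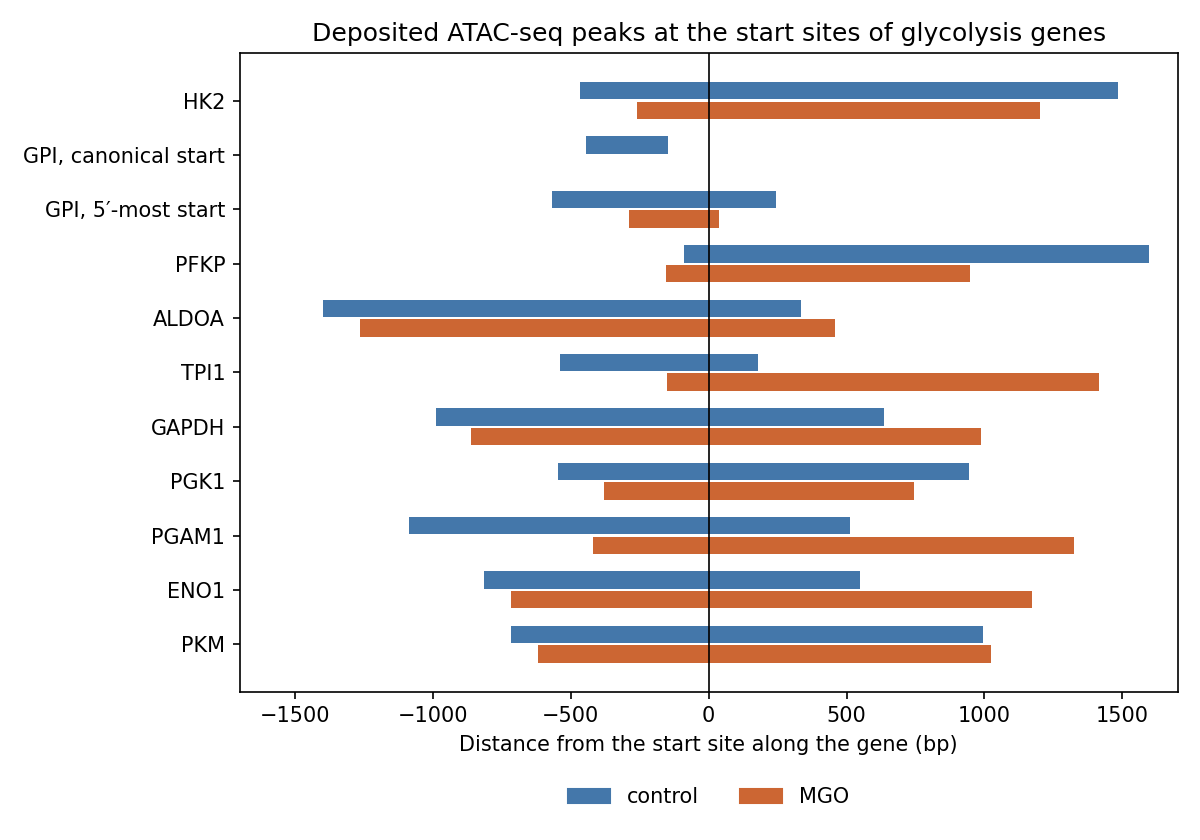
Each row is a gene, with bars for the deposited peaks of the control (blue) and MGO (orange) list by distance in bp from the canonical start site, upstream to the left, and GPI drawn at its canonical and at its 5′-most start. The MGO bar begins further to the right than the control bar at 8 of the 9 genes with both bars at the canonical start, and at GPI there is no MGO bar at that start.

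In the first steps of the pathway the start-site peaks were narrower under MGO at HK2, GPI and PFKP and of nearly the same width at ALDOA. HK2, a hexokinase that commits glucose to the cell by phosphorylation, had a control peak of 1952 bp at chr2:74833660-74835611 and an MGO peak of 1460 bp at chr2:74833869-74835328. The MGO peak lay wholly inside the control peak and covered 74.8% of it, over exon 1 with its 5′ UTR and coding start, and also over the start of the lncRNA gene HK2-DT. HK2 was the only one of the 10 genes with a higher −log10 p in MGO (7.10) than in control (5.57), and the only one with a higher fold enrichment (2.91 against 2.63). The printed HK2 promoter belongs to a later start than the canonical one at 74834127. Its window of 300 bases and the window at the canonical start were each covered in full in both lists.

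GPI, which turns glucose 6-phosphate into fructose 6-phosphate, had the greatest drop. Its control list held 3 start-site peaks, at chr19:34358913-34359725 (813 bp), chr19:34364751-34365049 (299 bp) and chr19:34391516-34392802 (1287 bp), each over a TSS of GPI. The MGO list held 1, of 324 bp, at chr19:34359192-34359515, inside the first control peak and covering 39.9% of it. This first peak is shared with the lncRNA gene ENSG00000267219 and lies 5471 bp upstream of the canonical GPI start at 34365196. At the canonical start the nearest control peak was 147 bp away and weak, with a −log10 q of 1.21, as was the third control peak, with 1.51. No MGO peak lay within 1000 bp of the canonical start. The retained peak fell from a −log10 p of 7.24 to 4.95.

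PFKP encodes the platelet form of phosphofructokinase, the main point of control of the pathway. Its control peak of 1684 bp, chr10:3067459-3069142, and its MGO peak of 1102 bp, chr10:3067392-3068493, shared 1035 bp over exon 1. The control peak reached 1594 bp downstream of the canonical start and the MGO peak 945 bp. The printed PFKP promoter belongs to a later start, and its window of 300 bases was covered over 204 bases in control and not at all in MGO. With a −log10 q of 1.91 the MGO peak of PFKP did not reach a q value of 0.01, so PFKP is the one gene of the 10 without an MGO start-site peak at that limit. ALDOA, the aldolase that makes the triose phosphates, had peaks of 1732 bp (chr16:30064362-30066093) and 1722 bp (chr16:30064495-30066216), with 1599 bp in common. The gene ENSG00000274904 has an exon in both ALDOA peaks and a start in or within 1000 bp of each.

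TPI1 had the greatest widening of the 10 genes under MGO, and GAPDH a widening within a factor of 1.5. TPI1, triosephosphate isomerase, which interconverts both triose phosphates, had a control peak of 719 bp at chr12:6866992-6867710 and an MGO peak of 1567 bp at chr12:6867380-6868946. They shared 331 bp, 46.0% of the control and 21.1% of the MGO peak. The control peak ended 179 bp and the MGO peak 1415 bp downstream of the canonical start, which took the MGO peak past exon 1 and over exon 2. The printed TPI1 promoter, that of a second start, was covered over 0 of the 300 bases of its window in control and over all of them in MGO. The window at the canonical start went the other way, with 300 bases covered in control and 201 in MGO. The ratio of MGO to control length at TPI1 was 2.18, at the percentile 99.1 of protein-coding genes with a start-site peak in both lists. Its −log10 p was low and close in both lists, at 5.43 in control and 5.19 in MGO.

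GAPDH, which oxidizes glyceraldehyde 3-phosphate, had a control peak of 1622 bp (chr12:6533530-6535151) and an MGO peak of 1852 bp (chr12:6533654-6535505), both over exons 1 and 2. A start of GAPDH-DT lay outside both peaks but within 1000 bp of each. The MGO peak covered 92.4% of the control peak and reached 354 bp further into the gene. Its −log10 p was 6.97 in control and 6.78 in MGO.

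In the later steps, ENO1 and PGAM1 had wider peaks under MGO, and PGK1 and PKM had peaks of nearly the same or smaller width. PGK1, the first enzyme of the pathway to return ATP, had the strongest peak of the 10 genes in both lists, with a −log10 p of 11.0 in control and 8.36 in MGO. At its canonical start the control peak was 1490 bp wide (chrX:78103702-78105191) and the MGO peak, wholly inside it, 1126 bp (chrX:78103868-78104993). GENCODE 44 also gives PGK1 a start at 77910739, far upstream, next to that of the copper transporter gene ATP7A. The peaks there, chrX:77910223-77911177 in control and chrX:77910368-77911261 in MGO, cannot be assigned to either gene. A weak MGO peak of 346 bp over another PGK1 start, chrX:78065043-78065388, with a −log10 q of 1.35, had no control counterpart.

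PGAM1, phosphoglycerate mutase, had a control peak of 1599 bp at chr10:97425106-97426704 and an MGO peak of 1743 bp at chr10:97425773-97427515. Both edges lay further downstream in MGO, the upstream edge by 667 bp and the downstream edge by 811 bp. RRP12 also starts in these peaks. ENO1, enolase, had a control peak of 1362 bp (chr1:8878139-8879500) and an MGO peak of 1887 bp (chr1:8877516-8879402), which reached 623 bp further into the gene on the minus strand, and ENO1-AS1 starts there too. PKM, the pyruvate kinase of the last step, had peaks of 1710 bp (chr15:72230197-72231906) and 1640 bp (chr15:72230169-72231808), the MGO peak covering 94.3% of the control peak.

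The covered length at the start sites was the sum over all start-site peaks of a gene. It ran from 719 bp at TPI1 to 2445 bp at PGK1 in control, with a median of 1697 bp. In MGO it ran from 324 bp at GPI to 2366 bp at PGK1, with a median of 1681 bp. The median over all protein-coding genes with a start-site peak was 1161 bp in control and 1066 bp in MGO. The ratio of MGO to control length was under 1 at 6 of the 10 genes and over 1 at 4, with a median of 0.981. It was under 1 at 67.9% of the 12545 protein-coding genes with peaks in both lists, with a median of 0.897. Past a factor of 1.5, GPI (0.135) and PFKP (0.654) were narrower in MGO and TPI1 was wider. In the background 17.2% of genes were narrower and 4.5% wider by this measure. GPI lay at the percentile 0.0359 of all ratios. Its ratio set 1 MGO peak of 324 bp against 2399 bp summed over 3 control peaks. Of these, 2 did not reach a q value of 0.01, with a −log10 q of 1.21 and 1.51. The MGO peak covered 39.9% of the control peak that it overlapped.

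**Figure D2:**
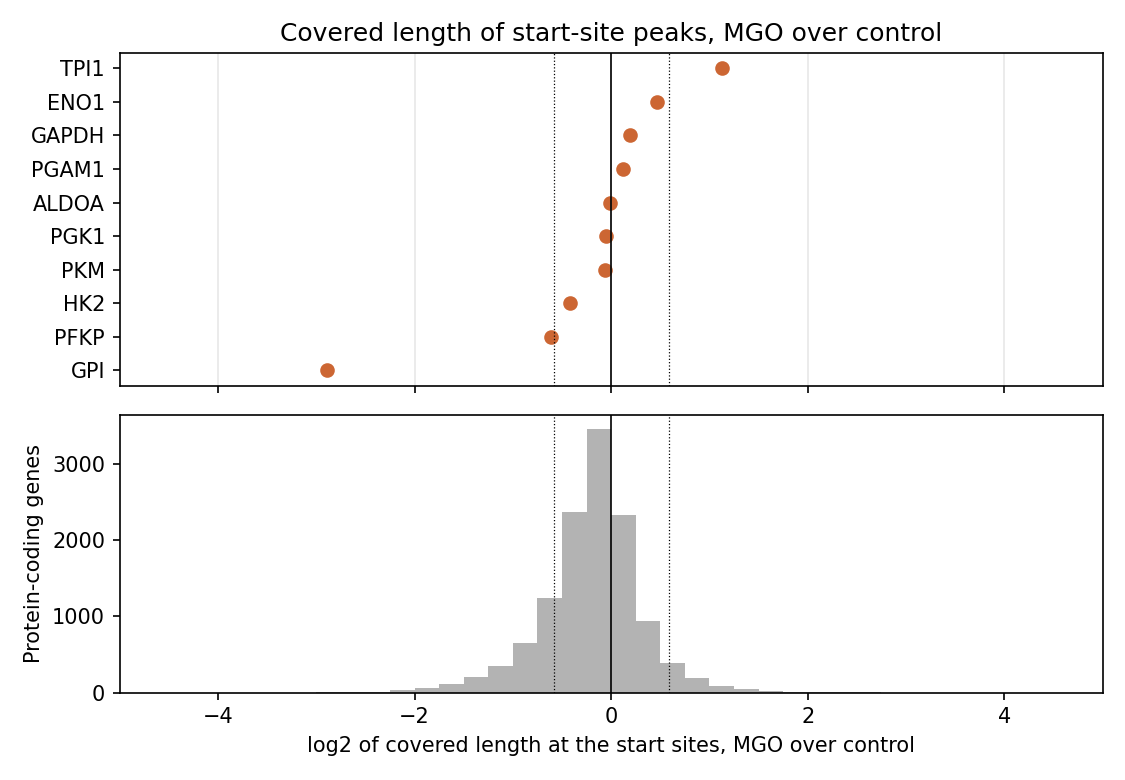
The upper panel gives the log2 ratio of MGO to control length of start-site peaks for each gene, and the lower panel the number of protein-coding genes at each ratio, with dotted lines at a factor of 1.5 either way. GPI lies far to the left at a ratio of 0.135, from 1 MGO peak against 3 control peaks. TPI1 lies to the right at 2.18, and the other 8 genes between them, from 0.654 at PFKP to 1.39 at ENO1.

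The place of the peaks was compared at the 9 genes, all but GPI, with overlapping peaks at the canonical start in both lists, a comparison that was chosen after the peaks had been seen. The upstream edge lay further downstream in MGO at 8 of them, all but PFKP, by 98 to 667 bp. This held for 69.1% of protein-coding genes. The downstream edge lay further downstream at 6 of the 9, ALDOA, TPI1, GAPDH, PGAM1, ENO1 and PKM, against 41.7% of protein-coding genes, and at HK2, PFKP and PGK1 it lay further upstream. At TPI1, PGAM1, ENO1 and GAPDH it moved by at least 300 bp into the gene, by 1236, 811, 623 and 354 bp. Of protein-coding genes 7.3% did so. Both edges lay further downstream at the same 6 genes named above, and at 29.9% of protein-coding genes. The median shift over the 9 genes was 133 bp for the upstream edge and 123 bp for the downstream edge, and over 11813 protein-coding genes it was 66 bp and −26 bp. With a limit of 2 on −log10 q, which leaves out PFKP, the medians over the remaining 8 genes were 149.5 bp and 238.5 bp, against 65 bp and −26 bp over 10662 protein-coding genes.

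Peak strength was ranked within each list, as the percentile of a gene's highest −log10 p among all protein-coding genes with a start-site peak. Most of the glycolysis genes ranked high by covered length and rather low by strength. The covered length is a sum over several peaks at GPI in control and at PGK1 in both lists. Whether width and strength are linked was not tested. Their median percentile was 33.5 in control and 38.8 in MGO by −log10 p, 14.4 and 12.2 by fold enrichment, and 80.5 and 85.5 by covered length. The −log10 p itself was lower in MGO at 9 of the 10 genes, with a median of 7.19 in control and 6.63 in MGO, and the median over all protein-coding genes was 9.12 and 7.65. The percentile was higher in MGO at 6 of the 10 genes, against 46.4% of protein-coding genes. It moved most at HK2, from 18.0 to 44.1, and at PGAM1, from 41.4 to 18.7. GPI went from 34.0 to 16.0.

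**Figure D3:**
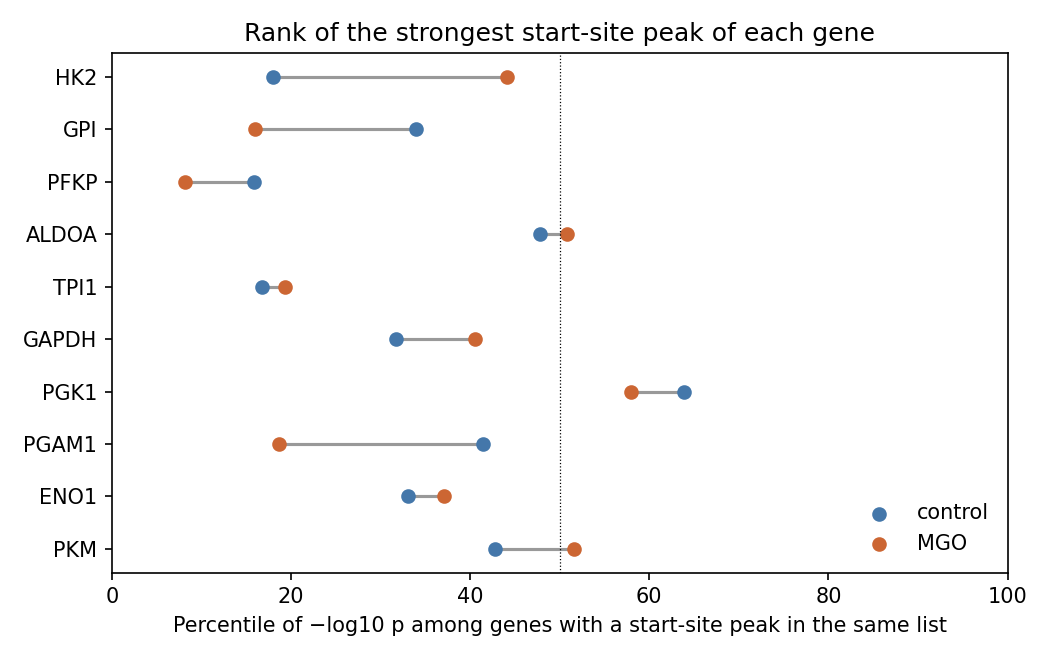
Points give the percentile of each gene's strongest start-site peak by −log10 p among protein-coding genes with such a peak in the same list, control in blue and MGO in orange. HK2 has the longest line to the right, from 18.0 to 44.1, and only PGK1 lies above the percentile 50 in both lists.

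Over the gene bodies there were 19 control peaks and 14 MGO peaks. Away from the start sites 6 were control peaks and 2 were MGO peaks, and no peak of the one list overlapped a peak of the other. None of the 6 control peaks was retained (0 to 45.9%), and for all protein-coding genes 26.6% of such peaks were. That share lies inside the interval. PFKP held 2 of the control peaks, both intronic. The stronger, chr10:3126453-3127305, was 853 bp wide with a −log10 p of 7.69, and the other was chr10:3078095-3078871. PFKP also held an intronic MGO peak with no control counterpart, chr10:3095408-3095941, 534 bp wide with a −log10 p of 6.38. HK2 had a weak control peak over its last exon, chr2:74892930-74893288 (−log10 q of 1.63). PGK1 had 3 weak intronic control peaks, at chrX:77942524-77942944 (1.87), chrX:78074156-78074772 (1.24) and chrX:78091919-78092825 (1.29), and a weak MGO peak at chrX:77984576-77984940 (1.44). None of these peaks of HK2 and PGK1 reached a q value of 0.01. The first of the PGK1 control peaks and the PGK1 MGO peak also lie within ATP7A.

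Within 50 kb of their TSSs the 10 genes had 49 control peaks, 32 of them retained (65.3%, interval 50.4 to 78.3%), and 36 MGO peaks, 32 of them over a control peak. Around all protein-coding genes 59.1% of control peaks were retained. The control list is the longer one, and with equal numbers of peaks taken from both lists by strength 82.9% were retained, against 77.5% around all protein-coding genes. Of the 17 control peaks that were not retained 10 were distal, over 1000 bp from any TSS. At TSSs of the 10 genes 11 of 13 control peaks were retained, and at TSSs of neighbouring genes 20 of 25 (interval 59.3 to 93.2%), where the background for peaks at a TSS was 86.1%. Of all distal control peaks 1 of 11 was retained (9.09%, 0.230 to 41.3%), and the background was 23.9%. The interval holds the background value. The retained distal peak lay in an intron of LRRC23, near TPI1, at chr12:6890996-6891738. Its MGO counterpart, with a −log10 q of 1.87, did not reach a q value of 0.01. With a limit of 2 on −log10 q in both lists, 23 of 36 control peaks within 50 kb were retained (63.9%).

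The neighbourhoods differed between genes. At GAPDH all 4 control peaks were retained, among them those of NOP2 and IFFO1 and the one shared by NCAPD2 and MRPL51. At ALDOA 6 of 7 were retained, and the peak that was not lay at YPEL3 (chr16:30096057-30096660, −log10 p of 5.21). Some of these matches include a peak that did not reach a q value of 0.01. These were the control peak at TLCD3B (−log10 q of 1.86) and the MGO peaks at PPP4C (1.61) and GDPD3 (1.93). PFKP retained 2 of 5, its own start-site peak and that of PITRM1. PGK1 retained 4 of 8. ENO1 had 1 control peak in the window, its own, and a weak intergenic peak in MGO alone, chr1:8905941-8906897. The 5 control peaks of highest −log10 p without an MGO counterpart were the 2 in introns of PFKP, one at an LRRC23 start near TPI1 (chr12:6904680-6905133, −log10 p of 6.61), one in an intron of RRP12 near PGAM1 (chr10:97407242-97407812, 6.57) and the one at YPEL3. Of the 17 control peaks without a counterpart 7 reached a q value of 0.01, and of the 4 MGO peaks without one, 1 did, the intronic peak of PFKP. The fourth MGO peak, besides those at ENO1 and PGK1, was chr10:3045917-3046342, upstream of PFKP and 741 bp from a start of the lncRNA gene ENSG00000287560.

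**Figure D4:**
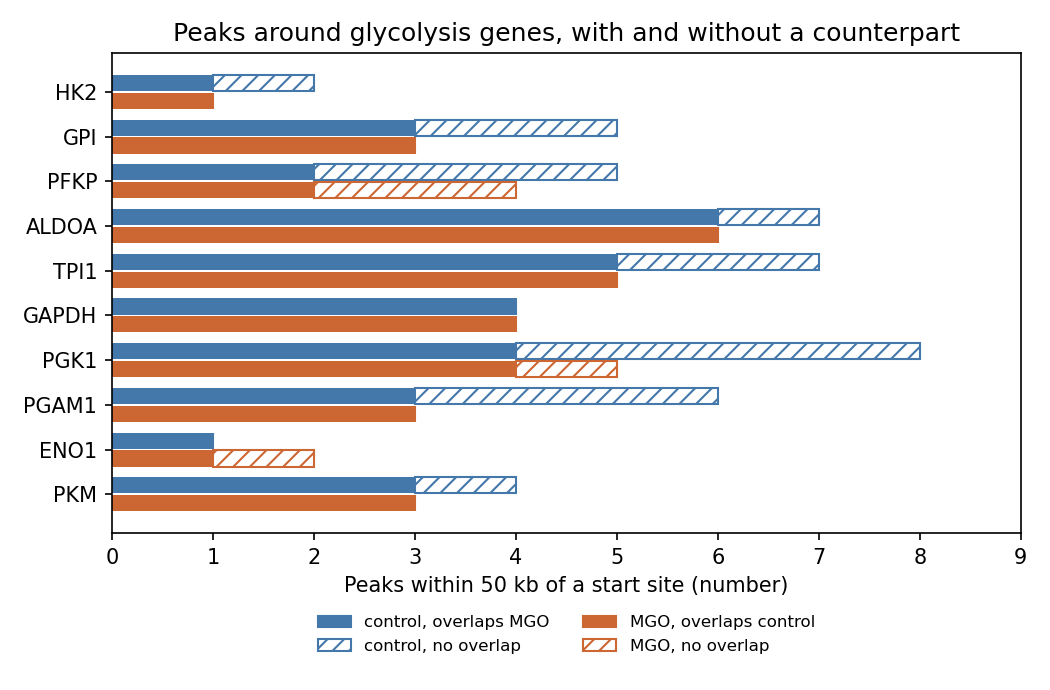
Bars give the number of peaks within 50 kb of a start site of each gene, control in blue and MGO in orange, filled where a peak of the other list overlaps and hatched where none does. All 4 control peaks at GAPDH are filled, and PFKP has 3 and PGK1 4 hatched control peaks.

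Most promoters of the 10 genes were rich in G and C. RefSeq gives the 10 genes 17 windows, from 250 bases before to 50 after a transcript start, with at least 1 window a gene, some of which overlap. Their median GC content was 70.7%, against 62.3% over the windows of all protein-coding genes, and they held a median of 32 CpG dinucleotides against 21. Their GC content ran from 53.3 to 79.7%. The only windows of GPI (56.7%, 13 CpG) and PGAM1 (53.3%, 5 CpG) lay below both background medians. The PGAM1 window belongs to a start at 97427818, downstream of the canonical one at 97426191, and no peak of either list covered it. On either strand ACGTG was present in 10 of the 17 windows, from 7 genes, and in 23.1% of the 21613 windows of protein-coding genes. GCGTG was in 7, from 6 genes, and in 43.1%. Both motifs hold a CpG, and the windows compared were not matched for CpG content. The E-box CACGTG, which MYC and related factors bind and which contains ACGTG, was in 3 windows, the printed one of HK2, one of GAPDH and one of ALDOA that is not printed, and in 8.35% of those of protein-coding genes. The GC box GGGCGG was in 12 (56.8% of protein-coding windows) and CCAAT in 4 (34.9%). TATAAA was in none (9.45%), nor was the AP-1 motif TGAGTCA, whose reverse complement is TGACTCA (4.03%). Of the 17 windows, 9 were covered in full by control peaks and 9 by MGO peaks. The GAPDH window was covered over 138 of 300 bases in control and over all 300 in MGO.

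Other genes of the pathway were taken from a list of 36. A start-site peak was present at 24 of them in control (66.7%, 49.0 to 81.4%) and at 22 in MGO (61.1%, 43.5 to 76.9%), near the 67.3% and 63.9% of all protein-coding genes. All 22 were retained peaks, and no gene had one in MGO alone. Among 11 isozymes, HK1, PFKL, PFKM, ENO2 and ENO3 had a peak in both lists. HK3, GAPDHS, PGK2, PGAM2 and PKLR had none in either. ALDOC, the brain aldolase, had a weak peak of 724 bp in control only (−log10 q of 1.47). SLC16A3, which exports lactate, likewise had one of 582 bp in control only (−log10 q of 2.44). Peaks of both lists stood at LDHA and LDHB, the lactate dehydrogenase subunits, at SLC2A1, the main glucose transporter of dividing cells, and at 7 of the 8 regulators. Of the enzymes of gluconeogenesis 1 of 5 had a peak, the mitochondrial PCK2. The median ratio of MGO to control length over the genes with both peaks was 0.912. The ratio was 3.21 at PFKFB2, named after its values were seen, where the peak went from 961 to 3087 bp.

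**Figure D5:**
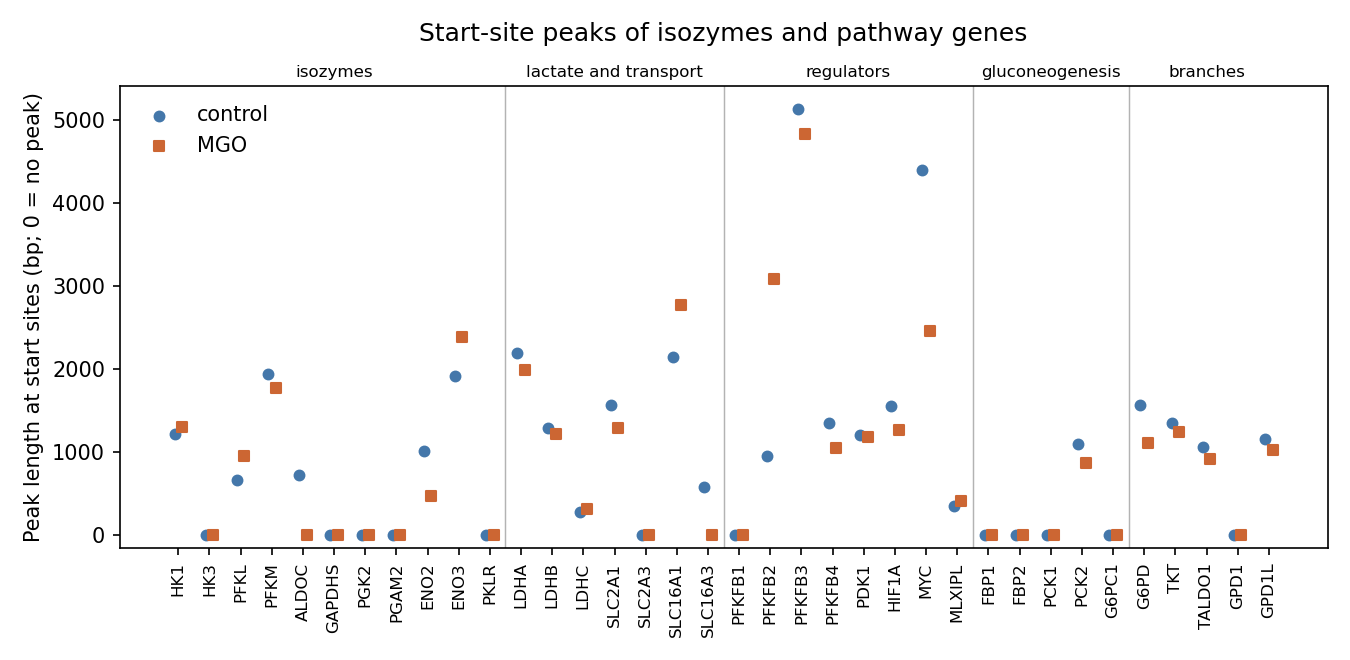
Points give the summed length in bp of start-site peaks of each listed gene in control (blue circles) and MGO (orange squares), with 0 where the list has no peak. ALDOC and SLC16A3 have a control point above 0 and an MGO point at 0, and 12 genes have both points at 0.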

How the data were processed

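ATAC-seq peak lists of 1 control and 1 MGO library of 293T cells were analysed. The authors mapped reads to GRCh38.p12 with BWA-MEM (0.7.15 in the submitters' processing notes), took out reads that were mitochondrial or mapped to several places, drew reads at random to equalize depth and called broad peaks with MACS2 per sample outside ENCODE blacklist regions. For its later steps the paper kept peaks with a q value under 0.01 and took consensus peaks by a reproducibility limit. The lists used here are not that consensus set. The columns used from the deposited lists are the ratio of signal to background (fold enrichment), −log10 p and −log10 q, beside a score made from q that was not used. Read counts are not in the lists, so the depth of a peak is unknown.

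Starts, exons and gene bodies were those of GENCODE 44, whose coordinates are those of the authors' build. All deposited peaks were used (pandas 2.3.3, numpy 2.4.6 and scipy 1.17.1 under Python 3.11.15). Overlaps and edge shifts were tested on simulated data and overlaps also with bedtools. All promoter peaks of the 10 genes are named, with other genes starting in or within 1000 bp of them. Pathway genes with a peak in 1 list only and unmatched peaks of highest −log10 p are named too. Members, lists and measures were chosen with earlier results of these data known. Alternatives were q limits, equal numbers of peaks, other windows, canonical starts and 50% overlap. Some genes of the pathway and marker lists are not reported here, and counts leave them out.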

Additional observations from a re-analysis of the deposited data

How the results depend on the processing

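No paired analysis was possible because each condition has a single library here, and no result comes from a test. Of 85 values recomputed under another setting, 69 fell inside the exact interval of the share given above, within 1.5 times of a reported count, or between the second and the second last gene for a median. When only peaks reaching a −log10 q of 5 were kept, the numbers fell by construction, and a start-site peak was left at 4 of the 10 genes in control and 2 in MGO, with 2 retained. There were then 5 and 2 such peaks, 6 and 2 gene body peaks (33.3% of control peaks retained), 16 and 8 peaks within 50 kb (50% retained), and 9 pathway genes with an MGO peak. With equal numbers of peaks, which drops the weakest control peaks alone, 82.9% of control peaks within 50 kb and 84.6% over gene bodies were retained. A window of 10 kb held 20 control and 16 MGO peaks. With a limit of 2 on −log10 q, or with 1 canonical start per gene, 9 genes had an MGO start-site peak, and when 50% of a control peak had to be covered, 8 genes retained one. The alternatives for the edges and for the peak at ATP7A were chosen after seeing the data, with 12 control and 11 MGO start-site peaks left without the one at ATP7A. With a limit of 2 on −log10 q or equal numbers of peaks, the upstream edge again lay further downstream at 8 genes and the downstream edge at 6, and with the limit of 2 the median downstream shift was 238.5 bp.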
